A study of Mus musculus with 4 samples.

Results

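Keratin-high cells are mouse embryonic stem cells in culture that were chosen by their measured Krt8 and Krt18 transcripts. Krt8 and Krt18 encode the type II and type I keratins that pair to form the intermediate filaments of simple epithelia. A cell entered the set when it held at least 5 unique molecular identifiers (UMIs, 1 per captured transcript) of Krt8 plus Krt18 and at least 3 of them per 10000 UMIs. The set held 1260 of 31989 kept cells, which came from 41142 deposited barcodes. They were compared, inside each library, with keratin-low cells, which held at most 1 UMI of Krt8 plus Krt18 and numbered 27233. The 2 keratins were therefore selected on, and their levels describe the choice.

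The cells were E14tg2a.4, a male mouse embryonic stem cell line, and the series set its wild-type (WT) cells against cells in which a gene trap truncates 1 of the Srrm2 alleles (Srrm2 hKO). SRRM2 is a splicing factor found in nuclear speckles. The labels list 2 WT and 2 Srrm2 hKO samples, and the hKO line is 1 gene-trap clone, CG0630, with its trap in exon 1. All cells were grown with LIF, which sustains self-renewal, before collection, and the sources used here differ on the medium and the growth time, so neither is given.

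Barcodes carry a library number from 1 to 4, but no label or file header ties these numbers to the WT or Srrm2 hKO samples. Each library is thus given on its own, genotype was not compared, and no p-value, mean or SD over libraries was computed. Intervals are exact 95% intervals that cover counting error only.

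Keratin filaments are switched on when the first epithelia of the embryo form, and undifferentiated stem cells make little of them. Acta2 and Tagln belong to the contractile programme of smooth muscle, which the serum response factor SRF drives together with its actin-sensing cofactors through a DNA element called the CArG box. YAP and its partners of the TEAD family act on many of the same cytoskeletal and matrix genes when cells spread. Naive pluripotency genes such as Zfp42, Esrrb and Klf4 mark the undifferentiated state that LIF maintains.

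The cells were found in every library, at very different shares. They were 81 of 8118 kept cells in library 1 (0.998%, 0.793 to 1.24%), 44 of 8514 in library 2 (0.517%, 0.376 to 0.693%), 748 of 7893 in library 3 (9.48%, 8.84 to 10.1%) and 387 of 7464 in library 4 (5.19%, 4.69 to 5.71%). No 2 of these counting intervals overlapped, but the shares moved with the rule. Libraries 1 and 2 stood at 1.43% and 1.30% with the limit of 5 UMIs alone and at 1.23% and 1.26% by a rule on thinned cells, and library 4 at 9.49% with 5 UMIs alone and 2.88% with 10 UMIs and 6 per 10000. Library 3 was the highest and library 4 the next under each of these. Cells with 2 to 4 keratin UMIs followed another order, with 2.64% in library 1, 7.36% in library 2, 8.30% in library 3 and 19.7% in library 4. Library 3 thus held the most strongly keratin-positive cells, and library 4 the most weakly positive ones. Library 2 had under 50 keratin-high cells, so genes were counted in libraries 1, 3 and 4 and library 2 is given beside them.

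**Figure D1:**
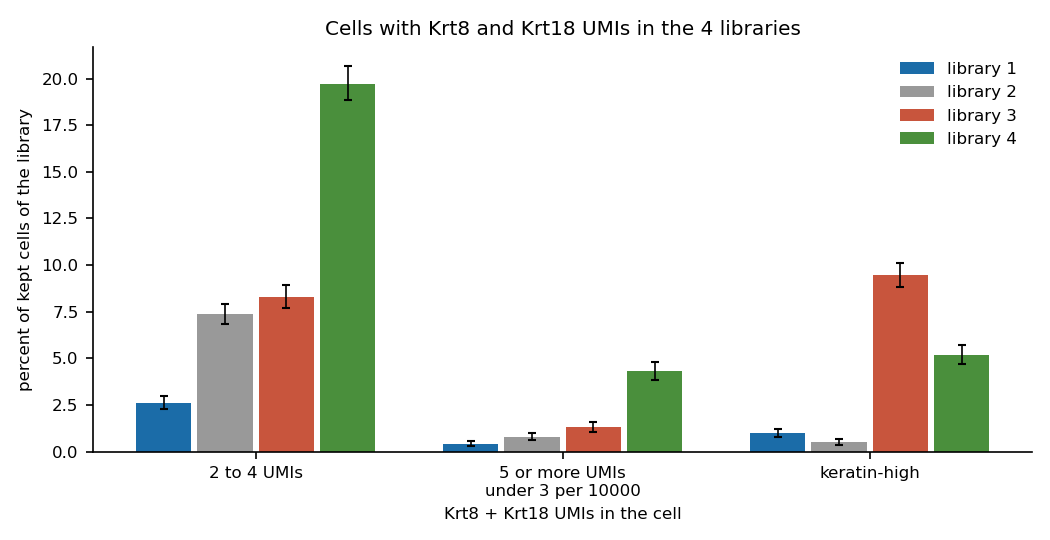
Share of kept cells (percent, bars with exact 95% binomial intervals) in each library by Krt8 plus Krt18 UMIs per cell; cells with 0 or 1 UMI are not drawn. Keratin-high cells reached 9.48% in library 3 and 5.19% in library 4 but stayed at or under 0.998% in libraries 1 and 2, while cells with 2 to 4 UMIs were most frequent in library 4, at 19.7%.

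Keratin-high cells had more UMIs than keratin-low cells. The rule sets a raw keratin count for each class, so depth can differ between the classes by construction. Median UMIs of keratin-high and keratin-low cells were 26919 and 18173.5 in library 1, 23038.5 and 21611 in library 2, 25386.5 and 18655 in library 3, and 22935 and 20708 in library 4. Cells with over 2 times their library's median made up 30.9%, 4.55%, 23.3% and 9.30% of keratin-high cells in libraries 1 to 4, against 4.75%, 2.88%, 3.23% and 2.25% of keratin-low cells. Doublets were not called, and their part in the results was not tested. In library 3 the 174 keratin-high cells over that limit held 5392 CPM (counts scaled to the same UMI total in every class of cells) of smooth muscle contractile genes and 707 CPM of naive genes, and the other 574 held 8917 and 479 CPM. Library 1 had the same order, at 3283 and 569 CPM over the limit and 6050 and 388 CPM for the rest. In library 4 contractile genes hardly differed, at 3992 and 4052 CPM, and naive genes stood at 732 and 396 CPM. Library 2 had only 2 cells over the limit, with naive genes in the opposite order at 368 and 530.5 CPM. The mitochondrial share was lower in keratin-high cells, with medians of 3.001 to 3.61% against 3.67 to 5.44% in keratin-low cells. Between 16 and 47 barcode sequences were shared by each pair of libraries, and 8 keratin-high cells carried one of them.

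At the edge of the rule, the 34 cells of the 4 libraries with exactly 5 keratin UMIs together held 680 CPM of Acta2 plus Tagln and 238 CPM of naive genes. The 24 cells just outside it, with 4 UMIs at the required share, held 559 and 354 CPM. Library 4 had the opposite order for Acta2 plus Tagln, with 389.5 CPM inside and 436 CPM outside. By share, the 91 cells at 3 to 3.5 keratin UMIs per 10000 held 720 CPM of Acta2 plus Tagln, and the 105 cells at 2.5 to 3 held 319 CPM, with library 2 in the opposite order at 279.7 CPM inside and 338 CPM outside.

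The name given to these cells rests on Krt8, Krt18, Acta2, Tagln, Gzme and Ctla2a, and the markers did not hold alike. Krt8 (chromosome 15, 101996698 to 102004482, minus strand, GRCm38) stood at 1161, 1111, 1824 and 921 CPM in keratin-high cells of libraries 1 to 4 and at 2.34 to 5.55 CPM in keratin-low cells. Krt18 (chromosome 15, 102028180 to 102032027, plus strand), its neighbour on the same chromosome, stood at 915, 826, 1762 and 710 CPM against 2.74 to 9.27 CPM. Library 3 held most of the keratin transcripts. The 2 keratins chose the cells, so the shares of their counts that lay in keratin-high cells describe the rule. These shares were 80.5%, 48.2%, 95.8% and 74.4% for Krt8 in libraries 1 to 4, and 71.45%, 31.3%, 94.65% and 61.3% for Krt18.

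Tagln (chromosome 9, 45929619 to 45936058, minus strand), which encodes the actin-bundling protein transgelin, was present in nearly all keratin-high cells. It stood at 1231, 1357, 2137 and 1319 CPM against 1.09, 3.05, 19.7 and 18 CPM, and at least 1 Tagln UMI was seen in 90.1%, 86.4%, 95.5% and 91.0% of keratin-high cells against 1.68 to 16.3% of keratin-low cells. After thinning every cell to 5000 UMIs the shares were 81.5%, 86.4%, 89.2% and 79.3%, against 0.527 to 5.94% of keratin-low cells thinned alike.

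Acta2 (chromosome 19, 34241090 to 34255590, minus strand), smooth muscle alpha-actin, was also far higher in keratin-high cells but carried by fewer of them. It stood at 287, 262, 919 and 175 CPM in keratin-high cells of libraries 1 to 4 against 0.115, 0.646, 4.84 and 2.88 CPM, a 60.8-fold difference (54.0 to 68.5) in library 4 and 190-fold (176 to 206) in library 3. Cells with a UMI were 17.3%, 15.9%, 52.7% and 25.3% of keratin-high cells against 0.231 to 5.40% of keratin-low cells, and 12.3%, 11.4%, 39.2% and 14.5% after thinning, against 0.103 to 1.64% of thinned keratin-low cells. In libraries 1, 2 and 4 most keratin-high cells thus showed Tagln without a detected Acta2 transcript. Neither gene was confined to the set. Keratin-high cells held 97.4%, 50.3%, 93.6% and 74.1% of the Acta2 counts of kept cells in libraries 1 to 4. For Tagln they held 85.4%, 50.2%, 89.2% and 69.3%.

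Gzme and Ctla2a, a granzyme and a cysteine protease inhibitor named from T cells, marked only a minority and had too few counts to be counted below. Gzme gave 3, 12, 440 and 6 UMIs in the keratin-high cells of libraries 1 to 4, spread over 2, 2, 95 and 3 cells. In library 3 its carriers were 12.7% of keratin-high cells and 0.345% of keratin-low cells, and 10 cells held 226 of the 440 UMIs. Those 95 cells had a median of 40.7 UMIs of Acta2 plus Tagln per 10000, against 13.6 in the other keratin-high cells of library 3, while their keratin medians were 16.5 and 21.6. Ctla2a gave 17, 7, 238 and 23 UMIs, and its 93 carriers in library 3 had a median of 50.4 UMIs of Acta2 plus Tagln per 10000, against 13.6 in the rest. Within the set, the granzyme-bearing cells of library 3 therefore lay at the contractile end rather than at the keratin end. Neither transcript was confined to the set. Keratin-high cells held 100%, 48%, 64.1% and 60% of the Gzme counts of kept cells in libraries 1 to 4. For Ctla2a they held 89.5%, 24.1%, 50.4% and 82.1%. In library 3, cells with 2 to 4 keratin UMIs held 189 Gzme UMIs. Of the lymphocyte list, Prf1 and Klrd1 had 0 UMIs in keratin-high cells. Klrd1 had none in keratin-low cells of libraries 1, 3 and 4 either, so its absence says nothing about keratin-high cells. Summed lymphocyte genes stood at 6.29 to 9.002 CPM in keratin-high cells against 15.1 to 21.2 CPM in keratin-low cells.

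The promoters of the called genes were examined for the DNA elements of SRF, TEAD and AP-1, and examples from contractile and actin genes are shown so that the elements can be seen. RefSeq promoters (GRCm38.p6, 250 bases before to 50 after each start) were searched on both strands for a perfect CArG box (CC, then 6 bases that are each A or T, then GG), for the TEAD motif GGAATG and for the AP-1 motif TGANTCA. Windows of 4 actin-cytoskeleton genes with a CArG box come first, followed by Acta2 and Tpm1, whose promoters hold the TEAD motif, with the named match in capitals. None of these matches overlaps another motif, but the Acta1 window also holds a TEAD motif on its other strand, which is left in lower case, and the Vcl promoter holds one outside its window.
Acta1, chr8:123894794-123894893, minus strand: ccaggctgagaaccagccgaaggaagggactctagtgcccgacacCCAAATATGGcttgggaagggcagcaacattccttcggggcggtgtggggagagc
Actg1, chr11:120348531-120348630, minus strand: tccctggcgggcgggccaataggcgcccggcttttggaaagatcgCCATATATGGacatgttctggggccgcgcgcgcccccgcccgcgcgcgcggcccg
Vcl, chr14:20929148-20929225, plus strand: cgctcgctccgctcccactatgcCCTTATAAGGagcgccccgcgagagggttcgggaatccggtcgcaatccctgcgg
Myl9, chr2:156775258-156775357, plus strand: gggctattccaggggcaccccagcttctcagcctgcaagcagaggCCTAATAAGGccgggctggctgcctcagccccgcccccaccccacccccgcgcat
Acta2, chr19:34255469-34255564, minus strand: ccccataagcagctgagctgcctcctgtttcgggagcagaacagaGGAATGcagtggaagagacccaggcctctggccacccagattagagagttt
Tpm1, chr9:67049219-67049314, minus strand: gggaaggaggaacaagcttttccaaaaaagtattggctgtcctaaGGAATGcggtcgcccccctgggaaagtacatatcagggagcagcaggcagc

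The boxes of Acta1 and Actg1 began 73 and 90 bases before the start, and those of Vcl and Myl9 began 227 and 161 bases before it. The table held a promoter for 574 of the 719 genes called higher and 396 of the 526 called lower, as counted below, and none under the symbols Tagln and Krt19. A CArG box was held by 14 of 796 promoters of the genes higher in keratin-high cells (1.76%), by 9 of 538 promoters of the lower genes (1.67%) and by 535 of all 32851 promoters in the table (1.63%). The TEAD motif was held by 16.5% and 15.4% of promoters of higher and lower genes and by 14.7% of all, and the AP-1 motif by 6.78%, 6.51% and 7.81%. Neither the higher nor the lower genes thus stood far from all promoters in these windows. The promoters of Krt8, Krt18, Cnn1, Vim and Gzme held none of the 3 motifs.

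Across the transcriptome, 719 of 11436 counted genes were at least 2-fold higher in keratin-high cells in each of libraries 1, 3 and 4 (6.29%), and 526 were at least 2-fold lower in each (4.6%). These counts depend on depth, filter and libraries: they were 240 and 242 with cells thinned to 5000 UMIs, 387 and 425 with a filter of 200 counts and 10 expected, 1430 and 820 without library 1, and 1141 and 762 without library 4. A gene was counted when it had at least 50 UMIs over both classes and at least 3 expected in the smaller class in every library used. Both limits use the sum of the 2 classes, so a gene could pass through its keratin-high UMIs. Sums under 3 were held at 3 in ratios, so a gene with few expected UMIs in keratin-high cells could be called higher but not lower. With no filter, 19957 genes were counted and lower calls stayed at 526. The shares of higher and lower genes are thus not like measures. The comparison is with the rest of cells chosen by 2 of their transcripts, so it is a description and carries no test. Library 2 was not used for these calls. Of the 522 higher genes with enough counts there, 500 (95.8%) were at least 2-fold higher, against 10.97% of all 10147 genes counted in it. Of 470 lower genes, 364 (77.5%) were at least 2-fold lower, against 7.99%. The median log2 ratio over all counted genes was 0.05 in library 1, 0.02 in library 3 and 0.01 in library 4.

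The 20 genes with the largest least ratio ran from Acta1 to Anxa2. Acta1, skeletal muscle alpha-actin, stood at 138, 20.7, 268 and 71.6 CPM in keratin-high cells of libraries 1 to 4 and at 0.159, 0.100, 1.04 and 0.555 CPM in keratin-low cells. Its smallest ratio over libraries 1, 3 and 4, 129-fold (99.8 to 169) in library 4, exceeded the smallest ratio of every other counted gene. The coding sequences of the actin genes are very alike, so a part of the Acta1 and Acta2 counts could be exchanged between them.

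Prss23, a secreted serine protease, stood at 112, 92.5, 199 and 52.4 CPM against 0.146, 0.240, 1.87 and 0.460 CPM. Krt19, the third simple-epithelial keratin and not used by the rule, stood at 251, 267, 222 and 311 CPM against 1.18, 3.03, 1.93 and 3.56 CPM, at least 87.5-fold in each library. Unlike Krt8 and Krt18, its level was nearly even over the 4 libraries. Anxa3, a calcium-dependent membrane-binding annexin, stood at 339, 216, 409 and 164 CPM against 1.74 to 5.58 CPM.

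Cryab, a small heat-shock chaperone of muscle, and Phlda1 had least log2 ratios of 5.68 and 5.67. Anxa1 and Anxa2, further annexins, had 5.60 and 4.27. The guanylate-binding proteins Gbp2 and Gbp2b, interferon-inducible GTPases of similar sequence whose reads may not be fully separable, had 5.18 and 5.16. Gsn, Flnc, Tgfb1i1 and Phldb2, which sever, cross-link or anchor actin or act at adhesions, had 4.83, 4.47, 4.68 and 4.31. The list was completed by the secreted factor Wnt4 (4.61), the matricellular YAP target Ccn1 (4.33), the stress-induced factor Atf3 (4.29) and 2200002D01Rik (4.34).

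The 15 leading lower genes held known stem cell genes beside germline and little-studied ones. Pdcl2 had the most negative least log2 ratio, -3.17, at 0.694 to 1.23 CPM in keratin-high and 7.55 to 13.5 CPM in keratin-low cells. This rests on 3, 1, 20 and 7 UMIs in the keratin-high cells of libraries 1 to 4. Pdcl2 was under 2-fold lower when cells were thinned to 5000 UMIs, but sums under 3 were held at 3. Too few UMIs were left in library 1 for a 2-fold lower ratio, so thinning cannot decide for Pdcl2. Krt42, a keratin transcribed in stem cells, went the other way from Krt8: it stood at 1.64, 5.39, 3.52 and 3.77 CPM in keratin-high cells and at 42.3, 54.5, 25.2 and 29.97 CPM in keratin-low cells. Nr0b1, Esrrb, Nr5a2 and Tcl1, which act in the naive network, had ratios of -2.84, -2.80, -2.74 and -2.72. The remaining genes were Vwa3b (-2.82), Mcf2 (-2.79), Morc1 (-2.78), Gm14820 (-2.73), Gm49504 (-2.73), Glod5 (-2.72, also under 2-fold in thinned cells), Lrrc31 (-2.71), H2-M5 (-2.71) and Lrrc34 (-2.69). The limit set by held sums may apply to Glod5 as well.

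**Figure D2:**
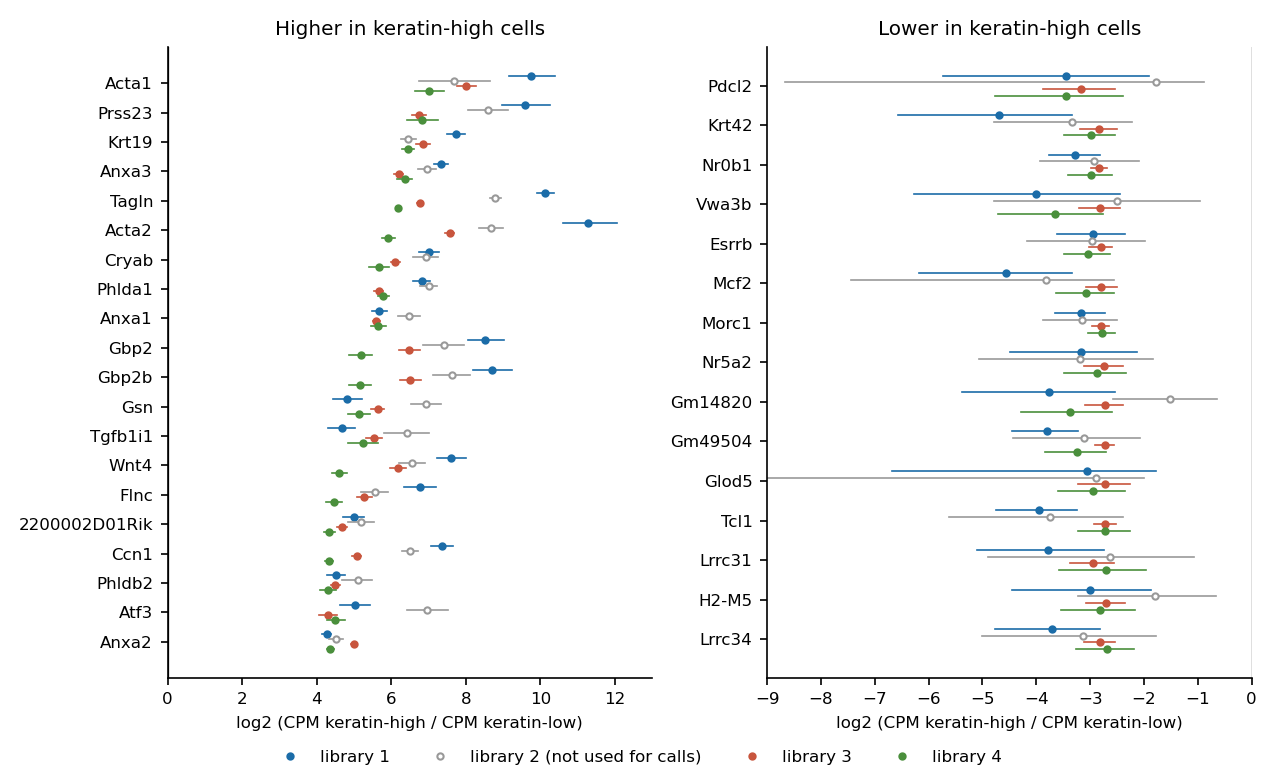
Log2 ratio of CPM in keratin-high over keratin-low cells for the 20 leading higher genes (left) and the 15 leading lower genes (right), 1 point per library with its exact 95% counting interval; library 2 (open points) was not used for the calls. Least ratios run from 4.27 (Anxa2) to 7.01 (Acta1) among the higher genes and from -2.69 (Lrrc34) to -3.17 (Pdcl2) among the lower ones, and library 2 lies on the same side of 0 for every gene drawn.

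The contractile list was called in most of its counted members. Of 12 smooth muscle contractile genes, 9 were counted and 7 were higher: Acta2, Tagln, Cnn1, Myl9, Tpm1, Tpm2 and Cald1. Over all counted genes 6.29% were called higher and 4.6% lower, the shares that belong beside each list below. Cald1, caldesmon, which restrains actomyosin, stood at 1025, 778, 1507 and 668 CPM against 14.5 to 41.5 CPM, and Tpm1, a tropomyosin, at 1779, 1761, 2325 and 1453 CPM against 108 to 186 CPM. Cnn1, calponin, stood at 68.3, 83.5, 83.0 and 130 CPM against 0.490 to 6.85 CPM. The list summed to 4693, 4529, 7489 and 4041 CPM in keratin-high cells of libraries 1 to 4, which was 27.8, 19.4, 26.5 and 11.3 times the keratin-low level.

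Smtn and Des were not called, at 13.1 to 34.1 CPM and 9.88 to 20.1 CPM in keratin-high cells. They were not level, however: the larger log2 ratio of the 2 was 1.46, 1.84, 1.11 and 1.32 in libraries 1 to 4. At least 1 of them was thus over 2-fold higher in each library. Myh11, the smooth muscle myosin heavy chain that defines the mature cell, gave 1, 0, 10 and 6 UMIs over all keratin-high cells of libraries 1 to 4. It was seen in 1.34% of keratin-high and 0.0470% of keratin-low cells of library 3, and in 1.55% and 0.0946% in library 4. Myocd, the cofactor that commits cells to smooth muscle, gave 0, 0, 8 and 7 UMIs, in 1.07% against 0.0470% of cells in library 3 and 1.81% against 0.114% in library 4. Both genes were thus rare in keratin-high cells and, in libraries 3 and 4, rarer still in keratin-low cells. The 7 genes that define the smooth muscle lineage, of which 3 were counted and Cnn1 was called, summed 6.84-, 6.44-, 7.14- and 6.19-fold higher. Cnn1 alone gave 68.3 of 112, 83.5 of 133, 83.0 of 139 and 130 of 181 CPM of that sum.

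Among 24 cytoplasmic actins and actin-binding proteins, all were counted and 15 were higher, with summed folds of 2.44, 2.13, 2.74 and 1.96. Actg1, cytoplasmic gamma-actin, stood at 4220, 4372, 5186 and 4205 CPM against 613 to 1139 CPM. Actb, its beta counterpart, was not called, at 4776 to 5502 CPM against 2465 to 2990 CPM. Of 15 counted adhesion and integrin genes, 10 were higher, among them Itga3, Itgb1, Ilk and Csrp1, and Lima1 was lower.

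Genes of the SRF and YAP pathways were called in part, beside 6.29% called higher over all counted genes. Of 12 counted genes of the SRF list, 5 were higher (Jun, Junb, Ier3, Elk3 and Fos), and Srf itself was not called, at 16.8, 39.5, 18.4 and 26.5 CPM against 6.46, 16.4, 9.77 and 17.7 CPM. Jun, an AP-1 subunit, stood at 49.5, 121, 78.0 and 93.5 CPM against 2.11 to 11.5 CPM. Of 14 counted YAP and TEAD genes, 8 were higher (Ccn1, Ccn2, Amotl1, Amotl2, Lats2, Crim1, Tead3 and Wwtr1), and Yap1 was not called, at 26.0 to 39.5 CPM against 17.6 to 30.7 CPM. Ccn1 stood at 137, 243, 167 and 167 CPM against 0.840, 2.66, 4.96 and 8.32 CPM.

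Epithelial junction genes were called in part and mesenchymal genes for the most part. Of 15 counted epithelial junction genes, 6 were higher, with summed folds of 3.22, 2.44, 2.31 and 1.90: the claudins Cldn3, Cldn6 and Cldn7, the desmosomal genes Dsp and Pkp2, and the polarity gene Crb3. Dsp, desmoplakin, stood at 60.6, 162, 67.5 and 115 CPM against 3.42 to 5.06 CPM. Cdh1, E-cadherin, was not called, but it was not lower either, at 121, 170, 99.4 and 170 CPM against 38.2, 82.6, 53.5 and 103 CPM.

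Of 13 counted mesenchymal genes, 10 were higher, with summed folds of 6.51, 7.87, 11.9 and 8.30. Zeb1 and Lgals3 were not called, and Snai1, Snai2, Twist2, Prrx1 and S100a4 had too few counts to be counted. S100a6, a calcium-binding protein, stood at 915, 1477, 1419 and 1426 CPM against 27.1 to 77.3 CPM. Vim, vimentin, stood at 617, 614, 1328 and 382 CPM against 168, 153, 126 and 83.6 CPM. In thinned cells of library 1 a Vim UMI was seen in 51.9% of keratin-high and 49.0% of keratin-low cells, so the higher level there came with almost the same share of cells. Cdh2, N-cadherin, was not called, at 9.002, 21.6, 26.9 and 17.8 CPM against 6.12 to 9.30 CPM. Of the basement membrane and matrix list, 5 of 13 counted genes were higher, and Sparc, a matrix glycoprotein, stood at 522, 613, 899 and 422 CPM against 66.8 to 93.2 CPM.

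Naive pluripotency genes were lower almost throughout. Of 12 counted, 10 were lower (all except Klf5 and Tbx3), and their sum was 477, 514, 571 and 459 CPM in keratin-high cells of libraries 1 to 4 against 2672, 2319, 2290 and 1615 CPM. Zfp42 stood at 57.3, 77.3, 81.0 and 73.0 CPM against 536, 569, 490 and 465 CPM, so that its low level was nearly the same in all 4 libraries. Nanog was at 22.1, 26.1, 24.3 and 15.9 CPM against 159, 138, 122 and 76.5 CPM.

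Of 8 counted core pluripotency genes, only Sox2 and Dppa5a were called lower. The median log2 ratio of the 8 genes was -0.74, -0.70, -0.96 and -0.66 in libraries 1 to 4. Pou5f1, which encodes OCT4, was not called, at 594, 635, 355 and 621 CPM against 851, 792, 715 and 777 CPM, and a Pou5f1 UMI was found in 61.0 to 86.6% of thinned keratin-high cells against 96.2 to 98.3% of keratin-low cells. The share that free RNA from neighbouring cells would give was not estimated.

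Other lineages were checked through their own lists. Of the trophoblast list, 3 of 6 counted genes were higher (Krt7, Plet1 and Peg10) and Tfap2c was lower, and Cdx2, the master factor of trophectoderm, gave 0, 1, 21 and 34 UMIs, seen in 5.69% of keratin-high and 0.189% of keratin-low cells of library 4. None of 13 primitive and visceral endoderm genes had enough counts, and their sum was 3.15, 8.85, 6.83 and 3.46 times the keratin-low level. Gata6, a factor of that lineage, gave 1, 5, 66 and 27 UMIs, seen in 6.95% against 0.251% of cells in library 3. Parietal endoderm genes summed 4.50 to 10.8 times higher, with Sparc, Col4a1 and Fst called of 5 counted, and primed and primitive streak genes 3.69 to 7.58 times higher, with Fst the 1 gene counted. The surface ectoderm list summed 10.8 to 22.2 times higher, which came mainly from Sfn (14-3-3 sigma), at 1007, 826, 789 and 690 CPM against 30.3 to 53.2 CPM. Of the 5 genes counted in that list, Perp and Sfn were called higher and Grhl3 lower. Trp63, which defines stratified epithelium, stood at no more than 0.232 CPM in any library. Fibroblast genes summed to 31.2 to 77.7 CPM against 2.37 to 5.55 CPM, which was 19.3, 11.6, 18.7 and 5.63 times higher in libraries 1 to 4. Of the 10 fibroblast genes only Thy1 was counted, and it was not called. Lum had 0 UMIs in keratin-high cells. Lists of other lineages were lower or moved less: definitive endoderm and gut genes summed to 0.406, 0.4385, 0.683 and 0.584 times the keratin-low level, with Trh called lower. Endothelial and blood genes stood at 0.421 to 2.05 times, with Pecam1 lower, neural ectoderm genes at 1.33 to 1.99 times, with Pax6 lower, and mesoderm and amnion genes at 1.13 to 2.35 times, with Vegfa higher.

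The S phase list and the G2 and M phase list, of 14 genes each, held no called gene, beside 6.29% called higher and 4.6% called lower over all genes. Summed S phase genes stood at 1949, 1955, 1588 and 2058 CPM in keratin-high cells against 2388 to 2751 CPM, and G2 and M phase genes at 1853 to 2314 CPM against 2467 to 2749 CPM. Of 9 counted G1 cyclins and Cdk inhibitors, 4 were higher, all of them regulators of G1: Cdkn1a (p21), Cdkn1c (p57), Cdkn2a and Ccnd2. Cdkn2a, which encodes p16 and p19, stood at 47.5, 88.0, 190 and 35.6 CPM against 6.29 to 13.7 CPM.

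Srrm2, the targeted gene, hardly separated the classes. It stood at 404, 478, 234 and 328 CPM in keratin-high cells of libraries 1 to 4 and at 386, 528, 235 and 353 CPM in keratin-low cells, so that libraries differed more than classes did. None of 9 splicing genes was called, a list too small to set beside the 6.29% and 4.6% of all genes. Of 38 lists other than the 2 keratins of the rule, 16 summed at least 2-fold higher in every library used and 2, naive and core pluripotency, at least 2-fold lower. Most of the core difference came from Dppa5a, at 786, 1029.9 and 818 CPM against 5324, 4779 and 2862 CPM in libraries 1, 3 and 4, and 6 of the 8 core genes were not called.

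**Figure D3:**
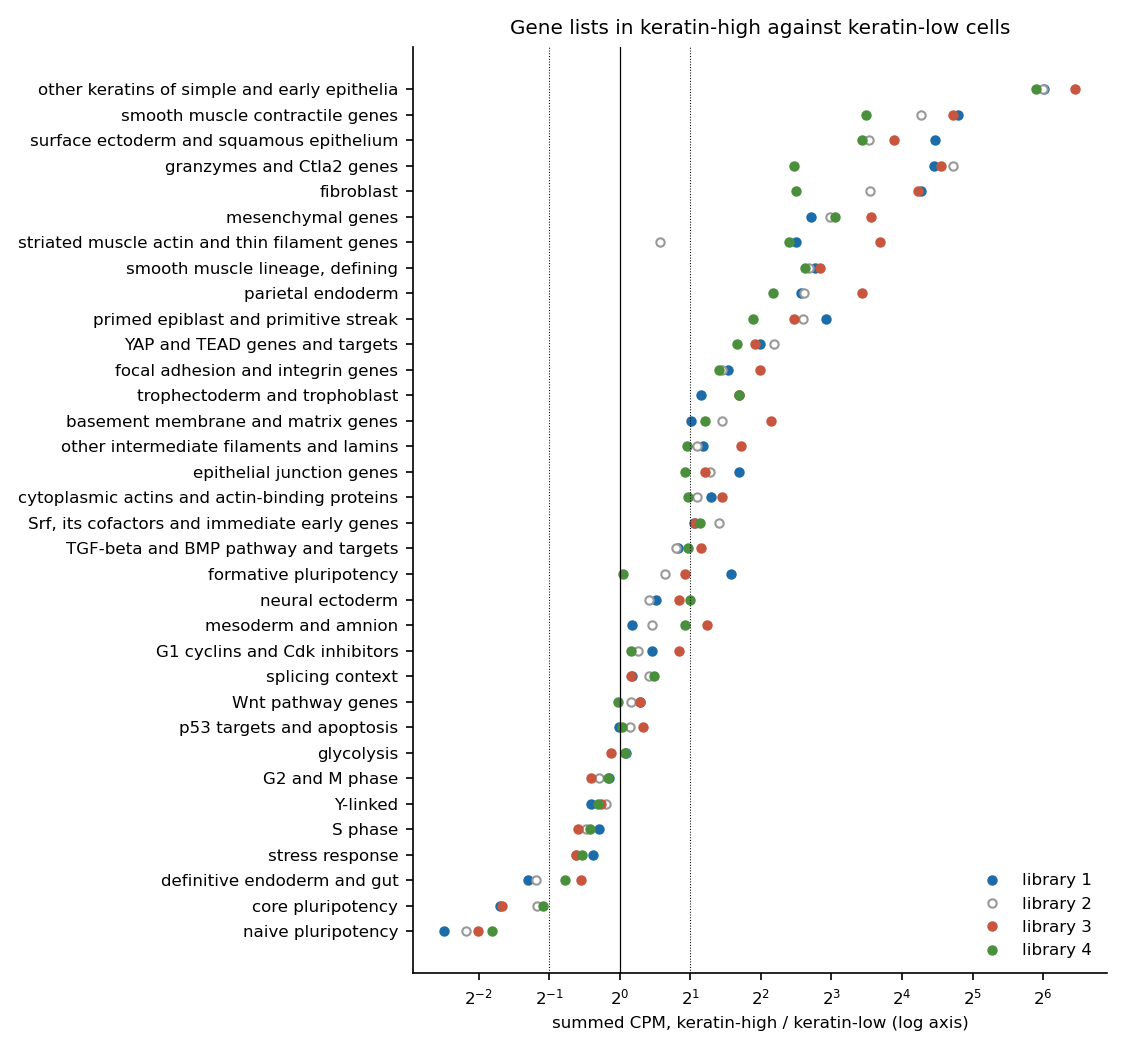
Summed CPM of each gene list in keratin-high over keratin-low cells (log axis, 1 point per library, library 2 open; dotted lines at 2-fold; lists with under 30 counts in the keratin-high cells of a used library are left out). Other keratins (59.8- to 88.0-fold) and contractile genes (11.3- to 27.8-fold) lie at the top, and naive genes, at 0.178 to 0.285 times the keratin-low level, at the bottom.

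The order in which genes differed was followed along keratin level. Cells were split into those with 0 to 1, with 2 to 4 and with 5 or more UMIs under the required share, and keratin-high cells into 4 equal classes by keratin share. The step with 5 or more UMIs under the share holds only deep cells, with median UMIs of 38522, 36321.5 and 31296 in libraries 1, 3 and 4 against 18173.5, 18655 and 20708 in the lowest step, and the part of depth in the order was not tested. Naive genes were already low before the rule was met: in library 4 they stood at 1615 CPM in the lowest step, 741 CPM at 2 to 4 UMIs, 621 CPM just under the share and 443 to 476 CPM in the 4 classes. In library 3 the first 3 steps were at 2290, 1293 and 780 CPM and the 4 classes at 652, 585, 563 and 487 CPM.

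Contractile genes continued to differ within the set. Their sum in library 3 was 282, 845 and 1762 CPM in the first 3 steps and 4432, 6608, 7925 and 10889 CPM in the classes. In library 4 the classes stood at 1717, 2443, 4877 and 6726 CPM. Acta2 alone did not follow this sum in every library. From the class below the top to the top class it went from 482 to 234 CPM in library 1 and from 319 to 242 CPM in library 4. In library 3 it went from 1033 to 1202 CPM. Mesenchymal genes stood at 461, 450 and 581 CPM in the first steps of library 4 and at 1167, 1940, 4343 and 7351 CPM in its 4 classes. In library 3 they already differed over the first steps, at 566, 858 and 1430 CPM. Vim did not follow the mesenchymal sum into the top class. From the class below the top to the top class, Vim went from 867 to 645 CPM in library 1. It went from 1630 to 1237 CPM in library 3 and from 620 to 494.5 CPM in library 4. Core pluripotency genes were lower at each further step of library 3, from 7320 CPM in the lowest to 1497 CPM in the top class, where Pou5f1 stood at 189 CPM against 499 CPM in the bottom class.

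Formative genes, which mark the state that follows the naive one, had their highest sum before the rule was met, and their course after it differed between libraries. In library 4 the sum was 1112 CPM in the lowest step, 1726 CPM at 2 to 4 UMIs and 837 CPM in the top class. Dnmt3b, a de novo DNA methyltransferase of that state, stood in the same steps at 510, 827 and 179 CPM. In library 3 Dnmt3b stood at 136, 258 and 63.9 CPM in those steps. The formative sum of library 3 was 369 CPM in the lowest step, 850 CPM just under the share and 648 to 729 CPM in the 4 classes, and that of library 1 was 236, 900.5 and 644 to 746 CPM, so in both the sum stayed above its lowest step. The sum does not stand for every member. Of 11 counted genes, Pou3f1, Sox4 and Sox11 were called higher in keratin-high cells and Otx2 and Foxd3 lower. Their median log2 ratio was 0.35, 0.18, -0.49 and 0.17 in libraries 1 to 4.

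**Figure D4:**
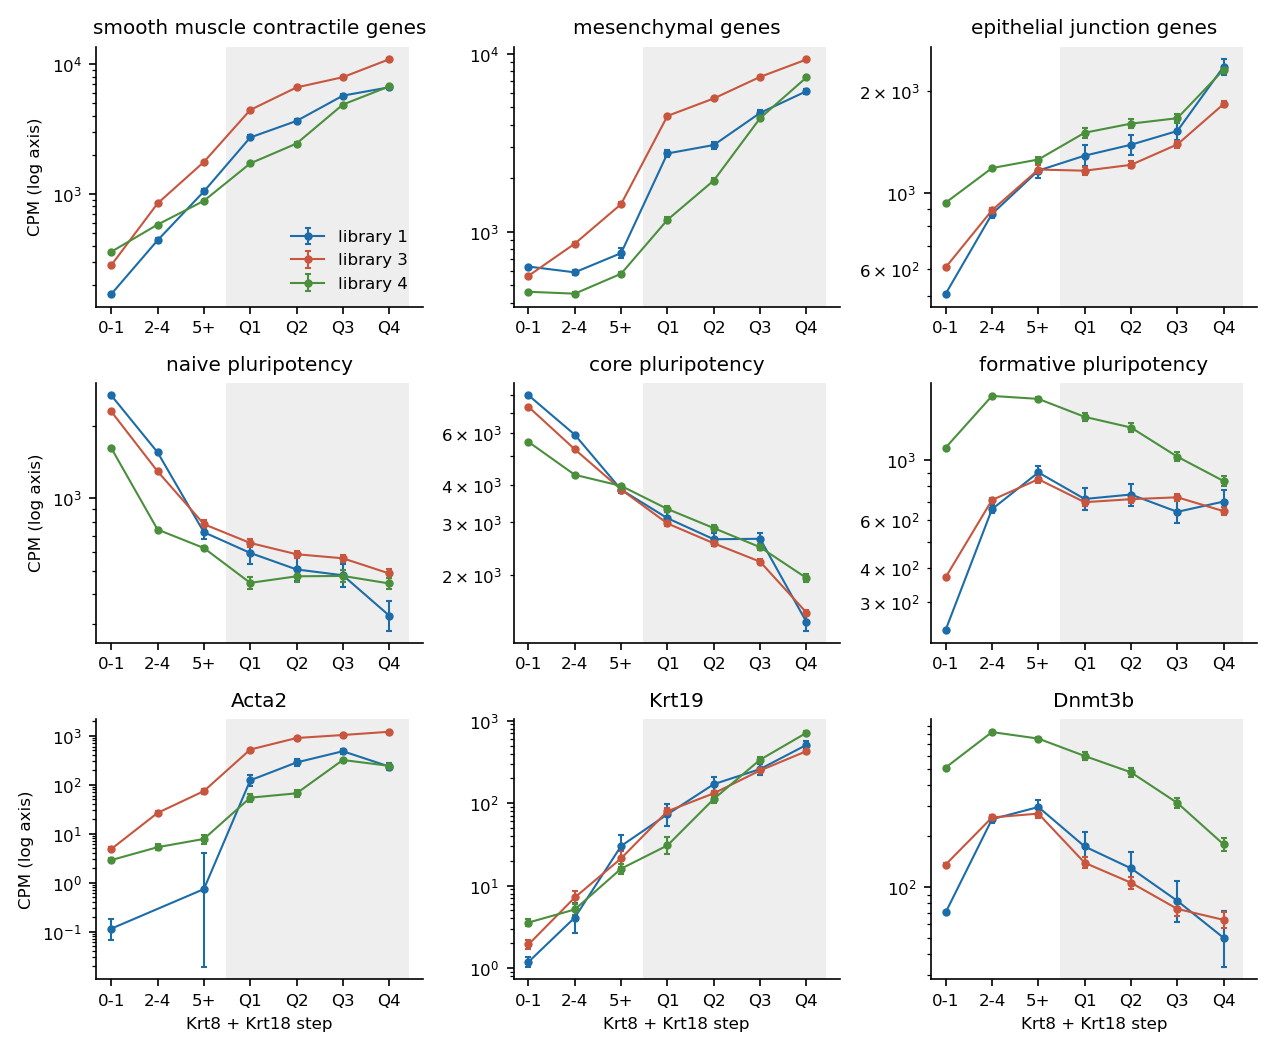
CPM (log axis, exact 95% Poisson intervals) of 6 gene lists and 3 genes over 7 steps of Krt8 plus Krt18 in libraries 1, 3 and 4; 0-1, 2-4 and 5+ are UMIs per cell below the rule, Q1 to Q4 (shaded) are 4 equal classes of keratin-high cells, and Acta2 in library 1 had no UMI at 2-4. Naive genes are lowest inside the shading, where they stay at 443 to 476 CPM in library 4 and go from 593 to 326 CPM in library 1 and from 652 to 487 CPM in library 3. The contractile and mesenchymal sums keep differing up to Q4, and Dnmt3b is highest before the shading. Acta2 alone is highest at Q3 in libraries 1 and 4 and at Q4 in library 3.

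Contractile and keratin transcripts overlapped but were not 1 measure. Cells with at least 5 UMIs of Acta2 plus Tagln and 3 per 10000 were 60 of 81 keratin-high cells in library 1 (74.1%, 63.1 to 83.2%), 36 of 44 in library 2 (81.8%), 616 of 748 in library 3 (82.4%, 79.4 to 85.0%) and 274 of 387 in library 4 (70.8%, 66.0 to 75.3%). Among keratin-low cells they were 0.0257 to 1.04%. Seen from the other side, keratin-high cells were 80.0%, 50.7%, 80.2% and 57.8% of all such contractile cells.

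The cells with only 1 of the 2 features also held fewer naive transcripts than cells with neither. In library 4 the 113 keratin-high cells without the contractile mark held 411 CPM of naive genes and 1743 CPM of mesenchymal genes, and the 274 with both held 475 and 4500 CPM. The 55 keratin-low cells with the contractile mark held 550 and 967 CPM, and the 5228 keratin-low cells without it 1627 and 455 CPM. In library 3 the order for mesenchymal genes differed, with 3304 CPM in the 132 cells with keratin only, 3868 CPM in the 58 with the contractile mark only and 529 CPM in those with neither. The 11 cells of library 2 with the contractile mark only held 884 CPM of naive genes, against 2321 CPM in those with neither.

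Within the set, Acta2 followed keratin level less closely than Tagln did. Over keratin-high cells, Pearson's r of log-scaled Acta2 with Krt8 was 0.09, 0.17 and 0.11 in libraries 1, 3 and 4 (81, 748 and 387 cells), r of Acta2 with Krt18 was 0.23, 0.23 and 0.27, and r of Krt8 with Krt18 was 0.85, 0.88 and 0.75. The summed keratins had r of 0.17, 0.20 and 0.21 with Acta2, of 0.56, 0.40 and 0.53 with Tagln and of 0.60, 0.46 and 0.64 with the contractile list. These are descriptions over cells that share a library and differ in depth, and the sum of Krt8 and Krt18 chose the cells. Acta2 had a UMI in 17.3%, 52.7% and 25.3% of these cells of libraries 1, 3 and 4. Tagln had one in 90.1%, 95.5% and 91.0%. The part of sparse detection in the lower r of Acta2, and in the ranking that follows, was not tested. Of 9203 genes ranked by the median r over the 3 libraries, the 10 most like Acta2 were Cdkn2a (0.68), Anxa1 (0.65), Cryab (0.63), Tmsb4x (0.63), Abracl (0.63), Anxa5 (0.62), Tpm2 (0.62), Ccn4 (0.62), Pmp22 (0.62) and Palld (0.61). The most opposite were Epcam (-0.54), L1td1 (-0.54), H2afz (-0.53), Pou5f1 (-0.53) and Ptma (-0.53). Epcam, an epithelial adhesion gene, was thus high where Acta2 was low inside the set.

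Keratin-high cells were last set beside cells of a formative kind. Keratin-low cells with the same limits applied to Fgf5 plus Pou3f1 numbered 125 in library 3 and 881 in library 4. Library 1 had 18 such cells, and library 2 had 561 beside its 44 keratin-high cells. These cells also had a low naive level: naive genes in keratin-high cells stood at 1.14 times theirs (1.08 to 1.21) in library 3 and at 0.875 times (0.845 to 0.906) in library 4. Contractile genes were 7.92-fold (7.63 to 8.22) and 8.80-fold (8.60 to 9.002) higher in keratin-high cells, and mesenchymal genes 12.8-fold (12.2 to 13.5) and 11.3-fold (10.98 to 11.6). In library 2 naive genes stood at 0.752 times (0.690 to 0.818), contractile genes were 13.2-fold and mesenchymal genes 14.9-fold higher. Otx2, a formative factor that was not used to choose either set, stood at 9.41 CPM in keratin-high and 49.4 CPM in the formative cells of library 3, and at 42.5 and 191 CPM in library 4. Dnmt3b was at 95.04 against 479 CPM and at 384 against 942 CPM. Not all formative genes went this way: Sox4 and Sox11 stood at 1.77 and 1.88 times the level of those cells in library 3 and at 1.15 and 1.41 times in library 4. Both kinds of cell thus had few naive transcripts, and of the 10 lists compared they differed most in the contractile and mesenchymal ones.

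**Figure D5:**
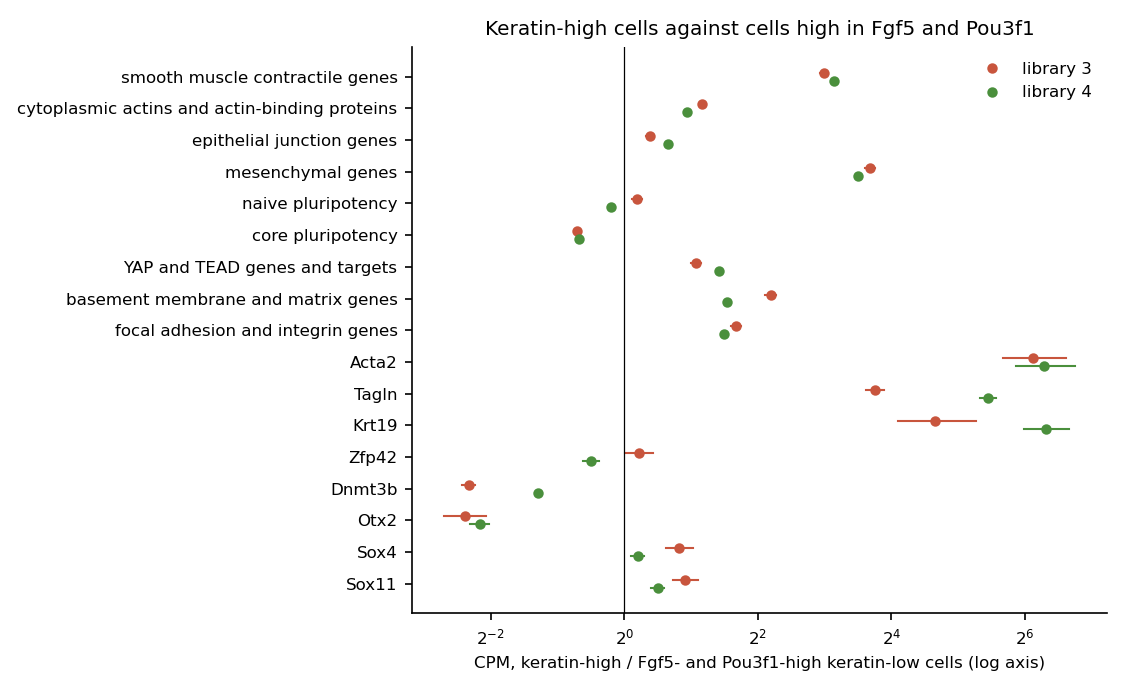
CPM in keratin-high cells over CPM in keratin-low cells high in Fgf5 and Pou3f1 (log axis, points with exact 95% counting intervals) in libraries 3 and 4. Naive genes lie near 1 (1.14 and 0.875), contractile and mesenchymal genes lie at 7.92 and above, and Otx2 and Dnmt3b lie under 1.

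The 2 marks also met in single cells. Of keratin-high cells, 26 of 81, 19 of 44, 164 of 748 and 149 of 387 in libraries 1 to 4 passed the Fgf5 plus Pou3f1 limits as well (32.1%, 43.2%, 21.9% and 38.5%). Among all kept cells, 68 of 8118, 820 of 8514, 402 of 7893 and 1703 of 7464 passed those limits, and keratin-high cells were 38.2%, 2.32%, 40.8% and 8.75% of them. Pou3f1 made up most of these counts, with 196 to 293 CPM in keratin-high cells against 2.60 to 12.6 CPM of Fgf5.

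Keratin-high cells of different libraries resembled each other to unequal degrees. Library 2 was not compared. Among genes with at least 30 counts in both, 87 of 6955 (1.25%) differed at least 2-fold between libraries 1 and 3, 348 of 6953 (5.01%) between libraries 1 and 4, and 623 of 10052 (6.20%) between libraries 3 and 4. The percentage for libraries 3 and 4 rests on more genes than the others, so it is not a like measure beside them. For the same genes, keratin-low cells differed in 92, 605 and 495 genes. Libraries 1 and 3 were therefore alike in both classes of cell, although keratin-high cells were 0.998% of the one and 9.48% of the other.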

How the data were processed

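The authors aligned 10x 3′ libraries to mm10 with Cell Ranger (6.1.2, per the submitters' processing notes) and deposited 1 aggregated matrix of raw UMI counts for all 4 libraries. Aggregation at default settings evens out reads between libraries. Genes are the matrix's 32285 symbols and identifiers. Kept cells had UMIs and detected genes at or above their library's mean minus 1 SD and a mitochondrial share of at most 10%. UMIs were summed over keratin-high and over keratin-low cells of each library and scaled to CPM (counts per 1e+06 UMIs). Sums under 3 were held at 3 in ratios, and genes were called by size alone, at least 2-fold the same way in libraries 1, 3 and 4. Calls and the motif search were tested on simulated data. Exact Poisson, Clopper-Pearson and conditional binomial intervals cover counting error only. Thinning drew 5000 UMIs per cell. The named genes were the 20 higher and 15 lower genes with the largest least ratio, the markers, Srrm2, members of 39 lists (3 of 451 genes were not matched: Aldoa, Ddit3, Zscan4a) and the genes most like Acta2. The cells, lists and rules were chosen with earlier results of these data known. Per-gene positions are from GENCODE vM21 (GRCm38). UMIs per library totalled 1113174 to 21570011 over keratin-high and 115324611 to 179511010 over keratin-low cells. Doublets were not called. Python 3.11.15, numpy 2.4.6, scipy 1.17.1 and pandas 2.3.3 were used.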

Additional observations from a re-analysis of the deposited data

Results flagged for a closer look

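The cell filter left out 9153 barcodes, which entered no comparison. Of them, 61 met the keratin rule (0.666%, exact interval 0.510 to 0.855%), beside 1260 of 31989 kept cells. They are given because they lie outside the comparisons, and a count of 0 would have allowed up to 0.0328%. They lay in every library (15, 2, 34 and 10 in libraries 1 to 4), had a median of 4135 UMIs, and 13 were over the mitochondrial limit. Their summed Acta2 and Tagln level was 3916 CPM and their naive genes stood at 369 CPM.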

How the results depend on the processing

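No paired analysis was possible because the barcodes carry no sample label, so the replicate numbers of the labels could not be used. The reported counts were 719 higher and 526 lower genes. With each cell thinned to 5000 UMIs they were 240 and 242 of 7863 counted genes, and the cause was not tested. A fold of 1.5 gave 1469 and 1030, and a fold of 4 gave 175 and 119. A filter of 200 counts and 10 expected left 387 higher and 425 lower genes, so that lower genes were then the more numerous. No filter gave 5077 and 526, since holding small sums at 3 lets a sparse gene be called higher but not lower. Leaving out 1 library at a time gave 754 to 1430 higher and 575 to 820 lower genes: without library 1 there were 1430 and 820, and without library 4 there were 1141 and 762. Fewer libraries then had to pass, and the genes counted went from 11436 to 13575 without library 1 and to 11475 without library 4. Including library 2, chosen after seeing the data, gave 500 and 364. Leaving out cells over 2 times the median UMI count gave 515 and 434. Matching keratin-low cells on UMI count gave 590 and 401 genes, of which 536 and 387 were among those reported. The share of keratin-high cells became 0.715, 0.341, 7.67 and 2.88% in libraries 1 to 4 with 10 UMIs and 6 per 10000, 1.43, 1.30, 10.8 and 9.49% with 5 UMIs alone, 8.06 and 3.90% in libraries 3 and 4 over all barcodes, 0.730 and 7.80% in libraries 1 and 3 without cells over 2 times the median, and 1.23, 1.26, 10.1 and 7.99% in libraries 1 to 4 by the thinned rule, which reversed the order of libraries 1 and 2. Library 3 had the highest share under each of these. The alternatives were run on 38 genes: the 35 leading genes, Gzme, Ctla2a and Srrm2. No ratio of these changed direction, and of the 37 at least 2-fold, Glod5 and Pdcl2 were under 2-fold in thinned cells and none under the other alternatives. Holding sums at 3 limits how low the ratio of a sparse gene can go. Thinning therefore cannot decide for Pdcl2 and may not for Glod5. Other genes named in the text were not rerun one by one.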
